A study of Mus musculus with 22 samples.

Results

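The 10 genes described here are the receptor genes Osmr, Il6ra, Il6st, Lifr and Il4ra, the transcription factor genes Stat3 and Cebpd, and the inhibitor genes Socs2, Socs3 and Cish. They were taken by symbol from the 21898 named genes of a table of mouse heart RNA, and all 10 were among the 14050 genes with enough reads to be tested. The hearts came from male mice that were 6 weeks old when they were divided into 3 groups, and were removed after the stress period. Control mice (n = 3) had no stress, case mice (n = 4) had 21 days of chronic psychological stress, and treatment mice (n = 4) had the same stress with JWH133, an agonist of the cannabinoid receptor CB2R, at 10 mg/kg in 2 intraperitoneal injections per day. No source used here gives the strain, the use of vehicle in the control and case mice, or the time of day at which hearts were removed. The groups share no genetic change in the labels, and every library is total RNA of heart tissue with paired-end reads. Reads were counted per gene, and the total per library ran from 29410822 to 34412849. Case library d lay nearest to the control level in most of these genes, and results that rest on it are given with and without it. Markers of cardiomyocytes were high in all 11 libraries, with a summed level of 8110 to 9980 FPKM (counted reads scaled to gene length and to the library total).

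Cytokines of the IL-6 family act through receptor complexes that share the chain gp130, the product of Il6st. Il6ra binds interleukin-6, Osmr binds oncostatin M and Lifr binds leukemia inhibitory factor, and each of these complexes signals through gp130 to Janus kinases, which phosphorylate STAT3. Phosphorylated STAT3 enters the nucleus and induces target genes, among them Socs3, whose product binds gp130 and the kinases and ends the signal. Socs2 and Cish are related inhibitors that are best known as brakes on growth hormone and other STAT5-dependent receptors. Il4ra is the interleukin-4 receptor chain, which signals mainly through STAT6 and belongs to another receptor family. Cebpd encodes C/EBP delta, a transcription factor of the acute phase response. In the heart, signalling through gp130 is known for its part in cardiomyocyte survival and growth under load. In build GRCm38 the receptor genes lie at chr15:6813577-6874969 (Osmr), chr3:89864059-89913196 (Il6ra), chr13:112464070-112510086 (Il6st), chr15:7090614-7197489 (Lifr) and chr7:125552120-125579474 (Il4ra). The transcription factor genes lie at chr11:100885098-100939540 (Stat3) and chr16:15887286-15891031 (Cebpd), and the inhibitor genes at chr10:95385362-95417180 (Socs2), chr11:117966079-117970047 (Socs3) and chr9:107296026-107302784 (Cish). RNA levels give no measure of phosphorylated STAT3 or of receptor protein.

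The STAT motif TTCNNNGAA was searched in the RefSeq promoters of build GRCm38.p6, which run from 250 bases before to 50 bases after each start annotated in RefSeq. The motif reads the same on both strands. Of the 10 genes, 8 had a promoter there, and Socs2 and Cebpd had none. The motif was found in 2 of the 8 genes, Socs3 and Cish, beside 9.55% of all 27025 genes with a promoter. These stretches are shown because these inhibitor genes were the only ones of the 8 in which the motif was found. The capitals mark the motif, and the sequences are written 5′ to 3′ on the strand of the gene. The Socs3 stretch is chr11:117969477-117969556 on the minus strand, and its motif begins 154 bases before the RefSeq start. The Cish stretch is chr9:107296579-107296678 on the plus strand. It holds the motif 2 times, at the RefSeq start itself and 11 bases past it. The gene positions given above come from another annotation, GENCODE, and both stretches lie inside those gene spans. The motif was held at least 2 times by 0.54% of all these genes.
Socs3: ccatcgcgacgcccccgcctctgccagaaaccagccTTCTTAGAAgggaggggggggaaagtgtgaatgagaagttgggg
Cish: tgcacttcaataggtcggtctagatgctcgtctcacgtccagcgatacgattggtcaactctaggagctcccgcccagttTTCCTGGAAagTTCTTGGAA
A match of letters is a description of the sequence and no evidence of binding.

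In the control hearts the levels per length spanned more than an order of magnitude. Il6st was highest at 36.1 FPKM ± 0.319 (SD, n = 3), followed by Stat3 at 27.0 ± 0.174, Lifr at 20.5 ± 0.226, Cish at 16.3 ± 2.29 and Socs2 at 7.49 ± 0.236. Cebpd at 5.37 ± 0.578 and Il4ra at 5.03 ± 0.365 overlapped between libraries. Osmr followed at 3.75 ± 0.203 and Il6ra at 1.82 ± 0.180, and Socs3 was lowest at 1.11 ± 0.0836. Thus the shared chain and STAT3 were abundant at rest, whereas the chain specific for interleukin-6 and the inhibitor Socs3 were scarce. In the case hearts the same genes led (Il6st 44.3, Stat3 33.8 and Lifr 30.01 FPKM), and the libraries of Stat3 and Lifr overlapped. Below them the order changed to Cebpd 13.9, Il4ra 12.3, Cish 12.04, Osmr 9.61, Socs2 6.09, Socs3 5.47 and Il6ra 4.12 FPKM, and each neighbouring pair in that stretch overlapped. In the treatment hearts Il6st (37.3 FPKM), Stat3 (23.8), Lifr (19.9) and Cish (14.7) led again, with Stat3 and Lifr overlapping. The remaining genes ran from Osmr at 5.80 to Il6ra at 1.94 FPKM, each overlapping its neighbour.

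**Figure D1:**
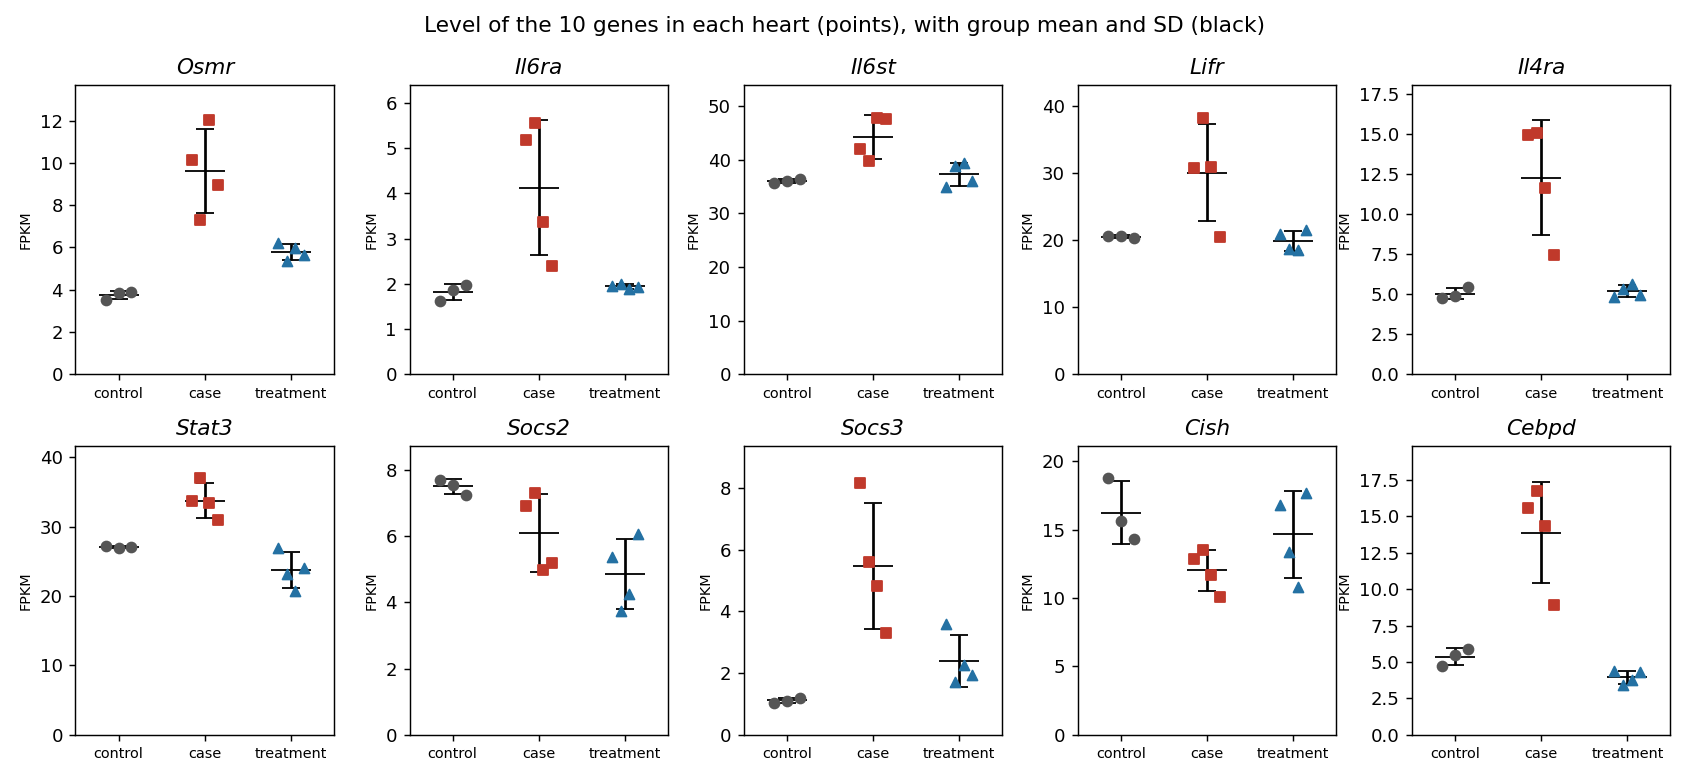
The level of each of the 10 genes (vertical axis, FPKM, starting at 0) is plotted for every heart in the control, case and treatment groups, with black lines for the group mean and SD. The case points of Osmr, Il6ra, Il4ra, Socs3 and Cebpd all lie above the control points, and the treatment points of Il6ra and Il4ra lie at the control level.

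The comparison of case with control hearts asks which of these genes differed after chronic stress. Of the 10 genes, 6 rose in the case group, namely Socs3, Cebpd, Osmr, Il4ra, Il6ra and Il6st, none fell and 4 did not pass the test. Of all 14050 genes, 8.21% rose and 7.55% fell in the same comparison (edgeR's quasi-likelihood test, Benjamini-Hochberg adjusted p under 0.05). The median log2 fold change of the 10 genes was 0.895, beside 0.01 over all genes tested. By the threshold of the study (unadjusted p under 0.05 and absolute log2 fold change above 1), 5 of the 10 were DE-mRNAs, beside 7.23% of all genes. At an unadjusted p under 0.05, 9 of the 10 passed, all but Socs2, with Cish as the one that was lower, beside 31.8% of all genes. In 7 of the 10 every case library was above every control library, which held for 11.7% of all genes. In whole heart tissue, fewer cells of a type and less RNA per cell cannot be told apart, and the same holds for more of either.

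Among the receptors, Osmr was at 3.51, 3.85 and 3.88 FPKM in the control libraries, at 10.2, 7.28, 12.03 and 8.98 in the case libraries, and at 6.23, 5.34, 5.97 and 5.65 in the treatment libraries. The 3 groups did not overlap, with the case hearts highest and the treatment hearts between them and the control hearts. Osmr was upregulated 2.57-fold in the case group, with a log2 fold change of 1.36 (SE 0.133, adjusted p = 0.000392 by edgeR). Il6ra was at 1.62, 1.86 and 1.98 FPKM in the control libraries, at 5.18, 5.55, 3.37 and 2.39 in the case libraries, and at 1.94, 2.0, 1.89 and 1.93 in the treatment libraries. Its case libraries were spread widely, yet the lowest of them was above every control and treatment library. Il6ra rose by a log2 fold change of 1.22 (SE 0.268, adjusted p = 0.0134 by edgeR) in the case group.

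Il6st, the chain common to the family, was at 35.8, 36.0 and 36.4 FPKM in the control libraries, at 42.0, 39.8, 47.9 and 47.7 in the case libraries, and at 35.0, 38.8, 39.4 and 36.1 in the treatment libraries. The case hearts stood above all others, by a small margin. The increase was 1.23-fold, the smallest of the 6 that passed, with a log2 fold change of 0.30 (SE 0.0681, adjusted p = 0.0143 by edgeR). Lifr was at 20.6, 20.6 and 20.2 FPKM in the control libraries, at 30.6, 38.2, 30.8 and 20.5 in the case libraries, and at 20.9, 18.6, 18.6 and 21.4 in the treatment libraries. Here 3 case hearts were higher than all others and case library d was at the control level. The log2 fold change of Lifr was 0.58 (SE 0.189, 95% interval 0.17 to 0.99), and it did not pass (adjusted p = 0.0583 by edgeR). Il4ra was at 4.74, 4.91 and 5.44 FPKM in the control libraries, at 14.9, 15.1, 11.6 and 7.44 in the case libraries, and at 4.84, 5.35, 5.66 and 4.95 in the treatment libraries. Only the case hearts were raised, and the other groups overlapped. Il4ra was upregulated 2.49-fold (log2 fold change 1.32, SE 0.228, adjusted p = 0.00442 by edgeR).

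Stat3 was at 27.2, 26.9 and 27.0 FPKM in the control libraries, at 33.7, 37.1, 33.3 and 30.9 in the case libraries, and at 27.0, 23.2, 20.8 and 24.1 in the treatment libraries. All 4 case hearts were above the other hearts. The log2 fold change of 0.34 (SE 0.115, 95% interval 0.09 to 0.59) did not pass in the case group (adjusted p = 0.0672 by edgeR). Cebpd was at 4.73, 5.50 and 5.87 FPKM in the control libraries, at 15.6, 16.7, 14.4 and 8.92 in the case libraries, and at 4.36, 3.43, 3.78 and 4.29 in the treatment libraries. The groups did not overlap, and the treatment hearts were lowest. Cebpd rose 2.64-fold in the case group, with a log2 fold change of 1.40 (SE 0.217, adjusted p = 0.00268 by edgeR).

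Of the 3 inhibitors, only Socs3 passed in the case group. Socs3 was at 1.05, 1.09 and 1.21 FPKM in the control libraries, at 8.16, 5.60, 4.82 and 3.29 in the case libraries, and at 3.60, 1.71, 2.27 and 1.95 in the treatment libraries. Its values rest on 93 to 112 reads in the control, 280 to 796 in the case and 145 to 322 in the treatment libraries. The control hearts were lowest, and the treatment range overlapped the case range through treatment library a and case library d. Socs3 was upregulated 5-fold in the case group, the largest change of the 10 genes, with a log2 fold change of 2.32 (SE 0.345, adjusted p = 0.00206 by edgeR). Socs2 was at 7.70, 7.55 and 7.24 FPKM in the control libraries, at 6.89, 7.31, 4.98 and 5.19 in the case libraries, and at 5.37, 3.74, 4.26 and 6.06 in the treatment libraries. Its case values spread from the control range to well under it, and the log2 fold change of -0.28 did not pass (95% interval -0.70 to 0.15, adjusted p = 0.361 by edgeR). Cish was at 18.8, 15.7 and 14.3 FPKM in the control libraries, at 12.9, 13.5, 11.7 and 10.1 in the case libraries, and at 16.8, 13.4, 10.8 and 17.7 in the treatment libraries. Every case heart was below every control heart in FPKM, but after scaling for library composition the groups overlapped. The log2 fold change of -0.41 (SE 0.185) did not pass (adjusted p = 0.147 by edgeR).

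**Figure D2:**
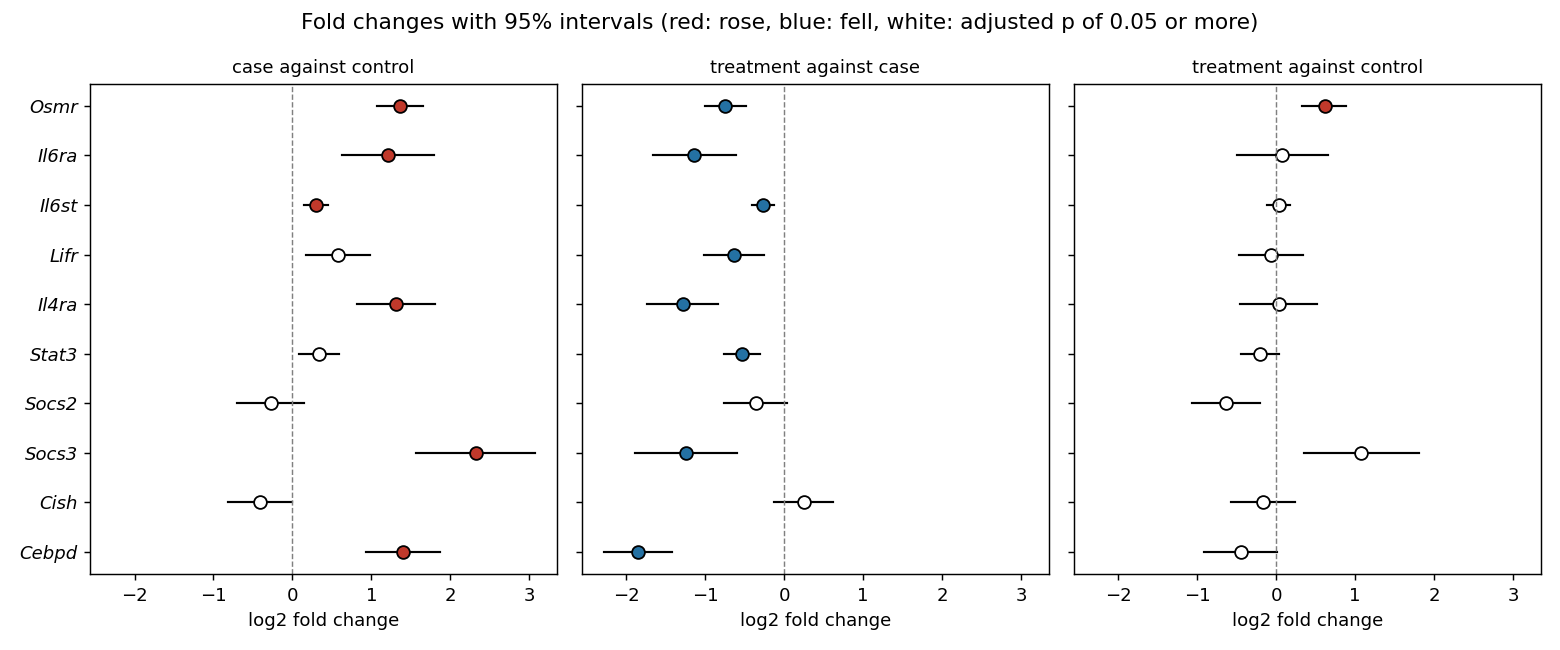
The log2 fold change of each gene (horizontal axis) is drawn with its 95% interval for case against control, treatment against case and treatment against control; red marks a rise, blue a fall and white an adjusted p of 0.05 or more. In the case group Socs3 had the largest change at 2.32 and Il6st the smallest that passed at 0.30, 8 genes fell in treatment against case, and in treatment against control only Osmr passed.

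The 4 case hearts differed in how far these genes were raised. The median log2 change from the control mean over the 6 genes that rose was 1.59 in case library a, 1.70 in b, 1.27 in c and 0.563 in d, while the control libraries lay between -0.09 and 0.118 and the treatment libraries between 0.02 and 0.123. Case library d was the lowest case library in 7 of the 10 genes and case library b the highest in 7. Osmr and Il6st departed from this order, being lowest in case library b and highest in case library c. Without case library d, Lifr (log2 fold change 0.74, adjusted p = 0.000567) and Stat3 (0.41, adjusted p = 0.0114) also rose in the case group, and 8 of the 10 genes were called by edgeR. Case library d was singled out after its low values were seen, so these added calls are a description. The number of calls over all genes tested also changed with the library left out, and its range is given in the last section. The calls of Osmr, Il4ra, Socs3 and Cebpd were kept whichever library was left out. That of Il6ra was lost without control library a or b, and that of Il6st without any one of the control libraries.

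**Figure D3:**
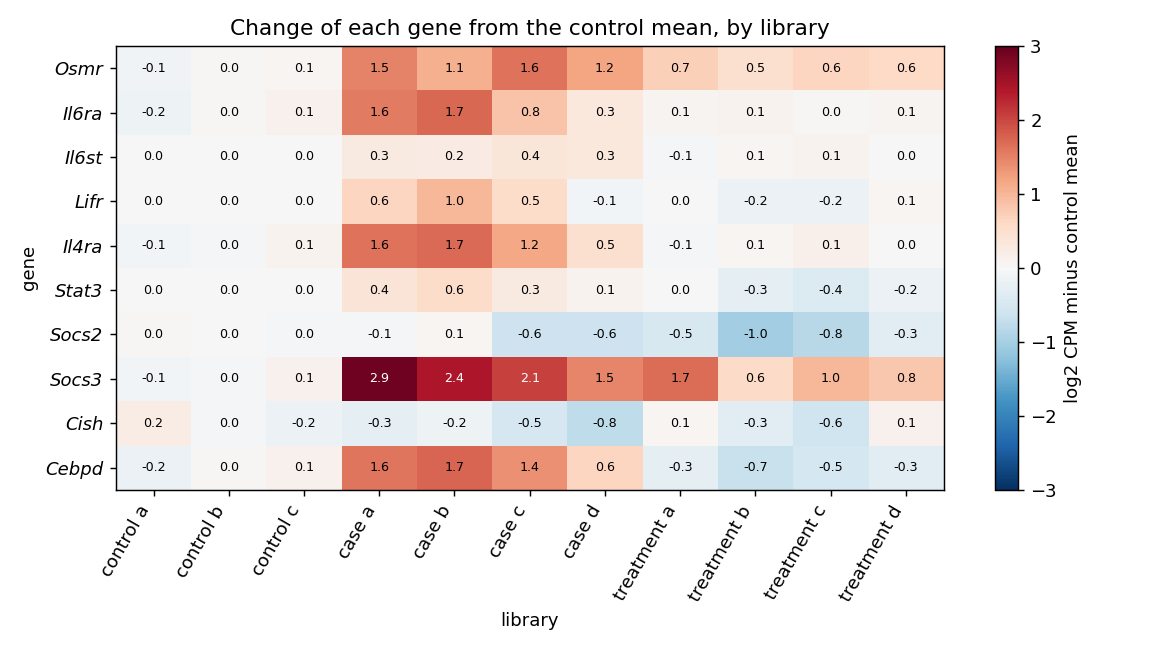
The change of each gene from the control mean (color and printed value, log2 CPM, counts scaled to the library total) is shown for each of the 11 libraries, with red above and blue below the control mean. Socs3 is 1.5 to 2.9 above the control mean in the case libraries, and the column of case library d is paler than the other case columns for Il6ra, Lifr, Il4ra and Cebpd.

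The comparison of treatment with case hearts asks which genes differed when the agonist was given during stress. Of the 10 genes, 8 fell in the treatment group and none rose, with Socs2 and Cish not passing. Of all genes tested, 6.57% fell and 4.33% rose by the same test. The median log2 fold change of the 10 genes was -0.695, beside 0.006 over all genes. The threshold of the study, applied to edgeR's values, was passed by 4 of the 10, beside 5.34% of all genes. At an unadjusted p under 0.05 the same 8 genes passed, beside 30.5% of all genes. In 6 of the 10 every treatment library was below every case library, beside 6.87% of all genes. The case libraries enter both this and the previous comparison, so the falls are not independent of the rises, and a case library that stands high moves both.

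Cebpd fell most, with a log2 fold change of -1.85 (SE 0.200, adjusted p = 0.00242 by edgeR), after a difference of 1.40 between case and control hearts. Il4ra had a log2 fold change of -1.29 (SE 0.207, adjusted p = 0.00735) and Il6ra one of -1.14 (SE 0.243, adjusted p = 0.0193), so that both were at the control level in the treatment hearts. Socs3 fell by 1.24 (SE 0.295, adjusted p = 0.0263), with the overlap of treatment library a and case library d named above. Osmr fell by 0.75 (SE 0.119, adjusted p = 0.00683), which was less than its difference of 1.36 between case and control hearts. Among the genes of high level, Stat3 fell by 0.54 (SE 0.106, adjusted p = 0.0148), Lifr by 0.64 (SE 0.173, adjusted p = 0.0391) and Il6st by 0.27 (SE 0.0628, adjusted p = 0.0245). Socs2 had a log2 fold change of -0.37 (95% interval -0.77 to 0.04, adjusted p = 0.201 by edgeR) and Cish one of 0.25 (95% interval -0.13 to 0.62, adjusted p = 0.35), so that neither a fall nor a rise was detected for these genes. The falls of Cebpd, Il4ra, Osmr and Stat3 were called whichever library was left out. Those of Il6ra and Il6st were lost without case library a or treatment library a, b or d. That of Socs3 was lost without case library a or b or treatment library b, c or d, and that of Lifr was called in only 1 of 11 such fits, the one without case library d (adjusted p = 0.000262), the library through which its case and treatment ranges overlapped.

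The comparison of treatment with control hearts asks which genes stayed apart from the resting level in mice that had both stress and agonist. Only Osmr passed, and at an unadjusted p under 0.05 there were 3, with Socs2 and Socs3, beside 11.3% of all genes. Osmr rose 1.53-fold, with a log2 fold change of 0.61 (SE 0.130, adjusted p = 0.0487 by edgeR), close to the threshold, beside 0.292% of all genes that rose and 0.79% that fell. This call was made in 3 of 11 fits that left out a library, those without case library b, c or d, and its adjusted p reached 0.234 in the others, although every treatment heart was above every control heart. Socs3 was also higher in every treatment heart than in any control heart, with a log2 fold change of 1.08 (SE 0.336, 95% interval 0.35 to 1.81), but did not pass (adjusted p = 0.207). It was the only one of the 10 past the threshold of the study, beside 2.97% of all genes. Groups that did not overlap in this direction were found in 8.96% of all genes.

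In the opposite direction, 3 genes were lower in every treatment library than in any control library after TMM scaling (a correction for library composition), namely Stat3, Socs2 and Cebpd, as were 10.5% of all genes. Their log2 fold changes were -0.20 for Stat3 (adjusted p = 0.55), -0.64 for Socs2 (adjusted p = 0.198) and -0.45 for Cebpd (adjusted p = 0.453 by edgeR), and none passed. In FPKM without that scaling the highest Stat3 value of the treatment hearts, 26.98, lay just above the lowest control value of 26.88. Il6ra, Il6st, Lifr, Il4ra and Cish had log2 fold changes between -0.16 and 0.07 and adjusted p from 0.826 to 0.987. For Il6st the 95% interval of -0.12 to 0.18 is narrow, whereas that of Il6ra, from -0.50 to 0.65, is wide. The median log2 fold change of the 10 genes was -0.016, beside 0.007 over all genes.

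Ratios of paired genes within a library remove its scaling. The pairs were chosen with the results of the single genes known, so the ratios are a description. The ratio of Osmr to Lifr, the chains that bind oncostatin M and leukemia inhibitory factor, was 0.17 to 0.192 in the control hearts. It was 0.331, 0.191, 0.391 and 0.439 in the case hearts and 0.264 to 0.322 in the treatment hearts. The treatment hearts were thus all above the control hearts, and case library b was at the control ratio because its Lifr was the highest of all libraries and its Osmr the lowest of the case libraries. The ratio of Socs3 to Socs2 was 0.136 to 0.167 in the control hearts, and 1.18, 0.766, 0.969 and 0.634 in the case hearts. In the treatment hearts it was 0.671, 0.456, 0.532 and 0.323, above every control heart and in 3 of 4 below every case heart. Socs3 was scarcer than Socs2 in 10 of 11 hearts, the exception being case library a. The ratio of Il6st to Osmr was 9.36 to 10.2 in the control, 3.98 to 5.46 in the case and 5.62 to 7.27 in the treatment hearts, without overlap.

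**Figure D4:**
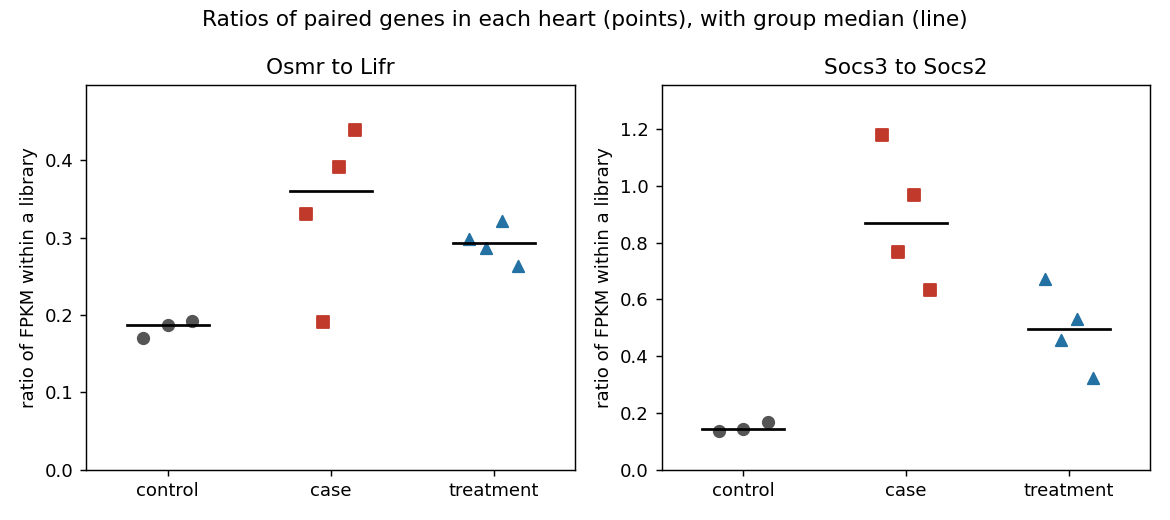
The ratio of FPKM between 2 genes of the same library (vertical axis, starting at 0) is plotted for each heart, Osmr to Lifr on the left and Socs3 to Socs2 on the right, with a line at the group median. Both ratios are higher in all treatment hearts than in any control heart, and 1 case heart is at the control ratio of Osmr to Lifr.

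Lists of further pathway genes held 101 genes, of which 90 were tested. The lists were chosen with earlier results of these data known, so their counts are a description. In case against control 27 rose and 4 fell, beside 8.21% and 7.55% of all genes. In treatment against case 5 rose and 28 fell, beside 4.33% and 6.57% of all genes. In treatment against control 3 rose and 1 fell, beside 0.292% and 0.79% of all genes. The ligands of Il6ra, Osmr and Lifr had few reads. Il6 had 0 to 3 reads in the control, 2 to 17 in the case and 6 to 12 in the treatment libraries, and Osm had 0 to 6, 5 to 11 and 4 to 5. Lif had 17 to 20, 4 to 27 and 15 to 38 reads, and its groups overlapped. Osm, Cntf (0 to 5 reads in a library), Il27 (0 to 9) and Ctf2 (0 in all) had too few reads to be tested.

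Cntfr, the chain that binds ciliary neurotrophic factor, was the only one of 3 further receptor chains to pass. It was at 0.817 to 0.941 FPKM in the control, 1.33 to 2.38 in the case and 0.416 to 0.907 in the treatment hearts. Cntfr rose by a log2 fold change of 0.95 (SE 0.285, adjusted p = 0.0427) in the case group and fell in treatment against case (log2 fold change -1.54, SE 0.267, adjusted p = 0.00967 by edgeR). Its values rest on 34 to 197 reads, fewer than those of any receptor among the 10 genes. Of the 10 Janus kinases and other STATs only Stat5a passed. It fell in the case group (log2 fold change -0.49, SE 0.0909, adjusted p = 0.00599) and rose in treatment against case (0.34, SE 0.0849, adjusted p = 0.031 by edgeR), the opposite of the direction of Stat3.

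Among 13 other inhibitors of this signalling, 3 rose in the case group and none fell. These were Ptpn11, which encodes the phosphatase SHP2 that binds gp130 (log2 fold change 0.61, adjusted p = 0.0216), Pias1, an inhibitor of STAT proteins (0.45, adjusted p = 0.0164), and Socs6 (0.44, adjusted p = 0.0421 by edgeR). Pias1 was the only one of the 13 to fall in treatment against case (-0.40, adjusted p = 0.0285), and none passed in treatment against control. None of the 3 that rose came near the size of the Socs3 change. Socs1 did not pass, with log2 fold changes of 1.21 in case against control (adjusted p = 0.189) and 2.14 in treatment against control (adjusted p = 0.134 by edgeR). It had 5 to 7 reads in the control, 5 to 29 in the case and 18 to 48 in the treatment libraries.

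In case against control, 16 of the 25 listed genes known to be induced through STAT3 rose, 1 fell and 8 did not pass. Of all genes tested, 8.21% rose and 7.55% fell. The median log2 fold change of the list was 1.24, beside 0.01 over all genes. The acute phase gene Serpina3n was at 2.94 to 4.02 FPKM in the control, 77.6 to 134 in the case and 8.44 to 23.4 in the treatment hearts. Its log2 fold change in the case group was 5.11 (SE 0.372, adjusted p = 7.32e-05 by edgeR). Lcn2, which encodes the iron-carrier binding protein lipocalin 2, rose by 3.92 (SE 0.417, adjusted p = 0.000479), and the immediate early gene Fos by 2.97 (SE 0.59, adjusted p = 0.00847). The acute phase gene Saa3 also rose (adjusted p = 0.0227), from 0 to 4 reads in the control to 3 to 242 in the case libraries, and it had 1 to 10 in the treatment libraries. Vegfa, a growth factor for vessels, was the one gene of the list that fell (log2 fold change -0.57, adjusted p = 0.00277 by edgeR).

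Of all genes tested, 6.57% fell and 4.33% rose in treatment against case, with a median log2 fold change of 0.006. Of the 25 listed genes induced through STAT3, 15 fell, 1 rose and 9 did not pass, with a median of -1.03. The largest log2 fold changes were -4.03 for Saa3 (adjusted p = 0.0386), -3.47 for Fos (adjusted p = 0.00676), -3.03 for Mt2, a metallothionein (adjusted p = 0.00615), and -2.86 for Serpina3n (adjusted p = 0.00215 by edgeR). Vegfa was the one that rose, and it did so by 0.74 (adjusted p = 0.0034). In treatment against control 2 of the 25 rose, namely Lcn2 (2.60, adjusted p = 0.0119) and Serpina3n (2.25, adjusted p = 0.00864), and none fell. Many genes of this list also answer to other signals, and several are induced by glucocorticoids. Of the 5 tested relatives of Cebpd in the C/EBP family, only Cebpb passed in any of the comparisons. It fell in treatment against case (log2 fold change -1.21, adjusted p = 0.0209 by edgeR), and Cebpe, with 0 to 2 reads, was not tested.

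Genes induced by glucocorticoids, the steroid hormones released in stress, moved beside the members. Of 10 listed, 4 rose in the case group, with a median of 1.07, beside 8.21% and 0.01 over all genes tested. All 10 fell in treatment against case, with a median of -1.65, beside 6.57% and 0.006 over all genes. In treatment against control 1 fell, beside 0.79% of all genes. Mt2, which is in this list too, rose by 2.85 on the log2 scale in the case group (adjusted p = 0.00516), Zbtb16, a transcription factor, by 1.37 (adjusted p = 0.0217) and Errfi1, an inhibitor of the EGF receptor, by 1.06 (adjusted p = 0.0255 by edgeR). Fkbp5, a chaperone of the glucocorticoid receptor, rose by 2.09 in the case group (adjusted p = 0.00794) and fell by 2.47 in treatment against case (adjusted p = 0.00566 by edgeR), where Ddit4, an inhibitor of mTOR signalling, fell by 2.59 (adjusted p = 0.0246) and the kinase gene Sgk1 by 1.86 (adjusted p = 0.0346). The case values of Fkbp5 ran from 7.53 to 29.0 FPKM, beside 3.68 to 5.66 in the control hearts. Per1, a clock gene that glucocorticoids also induce, fell by 1.55 in treatment against case (adjusted p = 0.00215) and was the gene that fell in treatment against control (-1.16, adjusted p = 0.00856 by edgeR). The part of glucocorticoids and of the time of day in the changes of Il6ra, Il4ra, Socs3 and Cebpd was not tested.

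The growth hormone and STAT5 axis, on which Socs2 and Cish act, was mixed. Of 10 genes, 3 rose and 1 fell in the case group. The gene that fell was Stat5a, and Igf1r, the receptor of insulin-like growth factor 1, rose by 1.14 (adjusted p = 0.00946), Csf2rb, a receptor chain for myeloid cytokines, by 1.05 (adjusted p = 0.00317) and Igfbp3, a binding protein of the growth factor, by 0.59 (adjusted p = 0.0282 by edgeR). In treatment against case Stat5a rose, as given above, and Igf1r fell by 1.06 on the log2 scale (adjusted p = 0.0151) and Igfbp3 by 0.52 (adjusted p = 0.0427 by edgeR).

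The partners of Il4ra did not follow it. Il4 had at most 1 read in a library, Il13 none and Il13ra2 0 to 5, and of 4 tested genes of the IL-4 and IL-13 axis only Il13ra1, which pairs with Il4ra to form a receptor for both cytokines, passed. Il13ra1 fell in the case group (log2 fold change -0.55, SE 0.13, adjusted p = 0.0179) and rose in treatment against case (0.42, SE 0.121, adjusted p = 0.0466 by edgeR), the opposite of Il4ra in both comparisons. None of 6 tested cytokine receptors that act without gp130 passed in any comparison, and Il31ra, Il12rb1 and Il12rb2 had too few reads to be tested (at most 3, 7 and 4 in a library). Of 3 genes for soluble decoys and shedding, Adam17, the protease that releases Il6ra from the cell surface, fell in the case group (-0.42, SE 0.0814, adjusted p = 0.0079) and rose in treatment against case (0.39, SE 0.0759, adjusted p = 0.015 by edgeR). Il6ra itself moved in the reverse directions.

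Across the 11 libraries the likeness of profiles is given as Pearson's r of log2 CPM, as a description, since the libraries share groups and case library d. Il6ra and Il4ra were the most alike of the 45 pairs among the 10 genes (r = 0.982, and 0.961 after the group means were taken out). Cebpd followed Il4ra (0.947 and 0.874) and Lifr (0.902 and 0.937). Osmr and Socs3 were alike over all libraries (0.92), but less so within groups (0.41), and Osmr and Il6st likewise (0.87 and 0.255). Within groups the r of Il6st was negative with all of the other genes except Osmr. It was lowest with Stat3 (0.61 over all libraries and -0.828 within groups), followed by Socs2 (-0.146 and -0.813) and Cish (-0.713 and -0.803). Among all 14049 other genes tested, the profile most like Il6ra was that of Mafk, a small Maf transcription factor (0.998), that most like Il4ra was Mt2 (0.991), that most like Lifr was Csnk1d, a casein kinase (0.978), and that most like Cebpd was Fosl2, an AP-1 factor (0.979). For Osmr it was Pdzrn3 (0.982), for Socs3 Ptpru (0.98), for Stat3 Pgf (0.961), for Il6st Cpne8 (0.957), for Socs2 Mnat1 (0.945) and for Cish Pcbp3 (0.875).

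Markers of some other cell types also differed between the groups. The summed level of 7 neutrophil markers was 1.26 to 1.69 FPKM in the control hearts, where S100a9 and Ngp were at 0, 5.99 to 14.2 in the case hearts and 2.75 to 21.3 in the treatment hearts. In case against control 2 of 6 tested neutrophil markers rose, and none passed in treatment against case. The 5 erythroid markers summed to 221 to 265, 607 to 1070 and 795 to 1710 FPKM, and all 5 rose in the case group. In treatment against control none of 6 neutrophil markers passed, and 4 of 5 erythroid markers rose. Macrophage and monocyte markers summed to 143 to 158, 130 to 235 and 139 to 219 FPKM, with 1 of 8 higher in the case group. Fibroblast markers ran from 178 to 203, 148 to 394 and 163 to 276 FPKM, with 2 of 6 higher in the case group, and case library d had the highest sum and case library b the lowest. Endothelial markers were at 189 to 201, 173 to 186 and 174 to 200 FPKM. Of the 6 endothelial markers, Emcn fell in the case group (adjusted p = 0.0471), and in treatment against case Kdr rose (adjusted p = 0.0158) and Pecam1 fell (adjusted p = 0.0363 by edgeR). Platelet markers rose in treatment against control in 3 of 4 tested, and summed to 12.2 to 15.3, 5.34 to 19.3 and 18.2 to 71.1 FPKM. Markers of dividing cells summed to 7.49 to 7.80, 1.03 to 1.92 and 1.2 to 2.06 FPKM, and all 4 fell in both stressed groups against the control group. Markers of hepatocytes, a main source of acute phase proteins in the body, summed to 0.0266 to 0.235 FPKM in the control hearts and 0.17 to 0.382 in the treatment hearts, with Alb and Fga at 0 in every library. In the case hearts they summed to 1.57, 1.54, 0.538 and 0.143 FPKM in libraries a to d, so that library d was lowest here too. Ttr, the only hepatocyte marker with enough reads to be tested, rose in the case group (log2 fold change 3.27, SE 0.886, adjusted p = 0.0297 by edgeR), with 1 to 8 reads in the control, 5 to 57 in the case and 6 to 14 in the treatment libraries. The part of these cell types in the changes of the 10 genes was not tested.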

How the data were processed

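Total RNA was sequenced with paired ends from the hearts of separate animals, 3 in the control group and 4 each in the case and treatment groups. The authors deposited raw counts of reads per gene with 1 length in bases per gene, without normalization. According to the submitters' processing notes, TopHat2, HISAT2 and cutadapt were used with build mm10. Their roles and versions, the counter, its use of strand and the annotation were not given in the sources used here. A further 11 columns of values per library were not used. The 11 small RNA samples of the series were not analysed here.

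Samples were grouped by the labels. The supplement of the study gives the class of the case and treatment columns by name, and the columns left were taken as control. No source used here links the library letters a to d to the numbered replicates. The 10 genes and all lists were chosen with earlier results of these data known. Genes with low counts were removed by edgeR's filterByExpr, libraries were scaled by TMM (factors 0.927 to 1.061), and edgeR's quasi-likelihood test (edgeR 4.0.16, R 4.3.3) was fitted as 1 model with a mean per group over the 11 libraries. The p-values were adjusted over 14050 genes by Benjamini-Hochberg, and "rose" and "fell" mean an adjusted p under 0.05. FPKM was computed here from the deposited counts, lengths and library totals, and log2 CPM used a prior count of 2. Alternatives were DESeq2 1.42.0 and its size factors, limma 3.58.1 on log2(FPKM + 1), no filter, fits of only the 2 groups compared, and leaving out each library. The pipeline was tested on simulated data with 200 changed genes. Figures were drawn with matplotlib 3.10.9. Of each list at most the 4 genes with the largest absolute log2 fold change among those that passed were named per comparison, with those below the filter. Some genes that this rule names are not reported here. Il6, Lif and Vegfa, the cell type markers and second values of a named gene were named after their values were seen. No pair of libraries in a group agreed within sampling noise, and intervals cover the spread between hearts. The chi-square per degree of freedom of such pairs was 7.562 to 14.91 in the control group. It was 32.48 to 140.3 in the case and 19.3 to 38.13 in the treatment group. The main model pooled the spread over all groups. Promoters from RefSeq and gene positions from GENCODE were read in build GRCm38.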

Additional observations from a re-analysis of the deposited data

Results flagged for a closer look

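Among 68 gene and group combinations of 4 libraries, 4 had 1 library set apart from the other 3 by Dixon's test, and chance gives about 1 in 20. None of them was one of the 10 receptor, transcription factor and inhibitor genes. Serpina3n was lowest in case library d, at 77.6 FPKM beside 127 to 134 in the other case libraries. This is also the case library with the lowest level of Il6ra, Lifr, Il4ra, Stat3, Socs3, Cish and Cebpd. Igfbp3 was highest in case library a, at 15.1 FPKM beside 9.3 to 10.2. In treatment library d, Ptpn11 was lowest at 44.6 FPKM beside 50.8 to 52.2 in the other treatment libraries, and Fos was highest at 2.13 FPKM beside 0.453 to 0.708.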

How the results depend on the processing

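There were 480 alternative values of the log2 fold changes of the 10 genes. Of these, 426 kept their side of the threshold, 45 lost the call and 9 gained it. Where the main or the alternative fit called the gene, 0 changed direction. Changes of direction without a call in either fit were not counted. For example, Il4ra in treatment against control went from 0.029 to as low as -0.01 with a library left out. The number of the 10 genes called in case against control (6) stayed within 1.5 times under every alternative run. In treatment against case it went from 8 to 3 when only the 2 groups compared were fitted. Osmr, Il4ra and Cebpd were the genes called there, and in the same fit of case against control Il6ra and Il6st lost their calls. In treatment against control it went from 1 to 2 with DESeq2, 0 with limma on log2(FPKM + 1) and 4 in the fit of 2 groups (Osmr, Socs2, Socs3 and Cebpd). The causes of these shifts were not tested. Over the whole table, the fit of 2 groups gave 858 genes in place of 2215 in case against control, 270 in place of 1531 in treatment against case and 816 in place of 152 in treatment against control, and DESeq2 gave 2567 and 416 in the last 2. Of the pathway genes, the fit of 2 groups called 18 in place of 31, 15 in place of 33 and 18 in place of 4. With each library left out in turn, the 10 genes had 4 to 8 calls in case against control, 4 to 8 in treatment against case and 0 to 1 in treatment against control. The pathway genes had 16 to 51, 16 to 52 and 0 to 7, and all genes tested had 704 to 4479, 373 to 4392 and 21 to 347. No paired analysis was possible because the columns carry letters that no source used here ties to the replicate numbers of the labels. With 3 or 4 hearts in a group, small changes such as those of Lifr and Stat3 lie near the threshold, and genes with few reads, such as the ligands, cannot be ranked.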
